A study of Mus musculus with 59 samples.

Results

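The genes described here are 9 genes whose products are characteristic of megakaryocytes and platelets: Pf4, Ppbp, Itga2b, Gp1ba, Gp1bb, Gp9, Gp5, Treml1 and Vwf. A probe set was taken when the platform annotation gave it exactly 1 gene symbol and that symbol was one of the 9. This found 9 probe sets for 8 of the 9 genes, out of 18193 genes with such a probe set on the array. Gp1ba had none and is not analysed here. Gp1bb had 2 probe sets, and the brighter one stood for it.

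The study measured RNA of B6C3F1 mice, a hybrid laboratory strain, on 59 Affymetrix expression arrays. Mice received baclofen, a drug that activates the GABA-B receptor, or its vehicle alone, 0.5% methylcellulose, once or daily for 5 days. Tissue was taken 2 h after the last dose. Spleen and bone marrow, the tissues compared here, each had 8 arrays of baclofen at 5 days, 4 of vehicle at 5 days, 4 of baclofen at 1 day and 4 of vehicle at 1 day. The third tissue, liver, had 19 arrays. Both groups were dosed, and undosed mice were not among the samples. The labels state neither the dose of baclofen nor the sex or age of the mice. They also do not say whether the replicates of a group are separate mice, so the p-values below measure the spread between these samples, which may be partly technical. The number of arrays, 20 per tissue, limits the precision.

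Megakaryocytes are large bone marrow cells that shed platelets into the blood, and in mice they also lie in the red pulp of the spleen. Platelets carry RNA and protein made in the megakaryocyte, and the spleen holds a share of the circulating platelets. In a piece of tissue, fewer megakaryocytes or platelets cannot be told apart from less RNA per cell. Pf4 (platelet factor 4, CXCL4) and Ppbp (pro-platelet basic protein, CXCL7) are chemokines stored in platelet alpha granules. Itga2b encodes integrin alpha IIb, which pairs with the beta chain Itgb3 to form the platelet fibrinogen receptor. Gp1bb, Gp9 and Gp5 encode subunits of the GPIb-IX-V complex, the receptor for von Willebrand factor, to which Gp1ba also belongs. Treml1 encodes TLT-1, a receptor held in the alpha granule membrane. Vwf encodes von Willebrand factor, the adhesive ligand of that complex, which endothelial cells make as well.

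Of the 8 measured genes, 7 had a promoter entry in the RefSeq table of mouse build GRCm38.p6. The 250 bases upstream of the start site were searched on both strands for GATAA and GATAG, which GATA factors bind, and for GGAAG, which ETS factors bind. Both kinds of factor act in megakaryocytes. GGAAG was present in 7 of these 7 windows, against 64.1% of 32851 promoter windows in the table. GATAA or GATAG was present in 4 of the 7 windows, those of Gp1bb, Gp9, Gp5 and Treml1, against 37.4% of the windows in the table. Both kinds stood together in the same 4, against 22.8%. A match is a string of letters and not a measured binding site. The windows of 4 genes are printed to show how the matches differ among genes whose signals moved together below. Capitals mark the matches on either strand, so that TTATC and CTATC are GATAA and GATAG on the opposite strand and CTTCC is GGAAG. The windows are chr11:102469884-102470133, minus strand for Itga2b, chr16:18622404-18622653, minus strand for Gp1bb, chr16:30310782-30311031, minus strand for Gp5 and chr17:48359666-48359915, plus strand for Treml1.
Itga2b: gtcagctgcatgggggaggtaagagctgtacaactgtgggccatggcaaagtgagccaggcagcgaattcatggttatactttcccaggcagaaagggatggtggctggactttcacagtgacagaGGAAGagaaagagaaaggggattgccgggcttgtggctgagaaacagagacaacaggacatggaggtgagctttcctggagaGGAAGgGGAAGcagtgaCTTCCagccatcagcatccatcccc
Gp1bb: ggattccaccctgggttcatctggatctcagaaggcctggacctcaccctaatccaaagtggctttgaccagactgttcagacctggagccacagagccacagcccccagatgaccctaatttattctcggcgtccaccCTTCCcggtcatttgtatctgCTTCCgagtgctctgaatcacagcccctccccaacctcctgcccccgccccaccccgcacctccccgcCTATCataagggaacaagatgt
Gp5: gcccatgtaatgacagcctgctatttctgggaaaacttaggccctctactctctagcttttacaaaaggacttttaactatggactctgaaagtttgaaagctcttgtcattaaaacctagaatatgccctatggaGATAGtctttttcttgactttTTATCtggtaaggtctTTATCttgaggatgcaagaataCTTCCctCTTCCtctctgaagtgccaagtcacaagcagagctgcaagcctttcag
Treml1: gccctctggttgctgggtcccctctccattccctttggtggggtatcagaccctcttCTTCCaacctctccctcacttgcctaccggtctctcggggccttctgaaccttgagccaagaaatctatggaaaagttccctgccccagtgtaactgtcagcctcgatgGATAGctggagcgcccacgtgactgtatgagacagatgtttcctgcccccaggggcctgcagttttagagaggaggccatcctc

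Itga2b held 4 GGAAG matches and no GATAA or GATAG, and 3.39% of the windows in the table held as many GGAAG matches. Gp5 held 3 GATA-type matches and 2 GGAAG matches. Gp1bb held 1 and 2, and Treml1 held 1 and 1. Pf4 and Ppbp, which lie next to each other on chromosome 5, a distance of 2372 bases from the end of Ppbp to the start of Pf4, held 1 and 2 GGAAG matches and no GATA-type match. The coordinates of the genes in GRCm38.p6 are chr5:90772435-90773383 for Pf4, chr5:90768518-90770063 for Ppbp, chr11:102453297-102469883 for Itga2b and chr16:18620319-18622403 for Gp1bb. Those of the others are chr6:87776131-87779786 for Gp9, chr16:30307685-30310781 for Gp5, chr17:48359916-48367176 for Treml1 and chr6:125552948-125686679 for Vwf. The window of Gp9 lies within its annotated span, since the table's start site is internal.

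Array medians ran from 74.3 to 77.6 intensity units in spleen and from 72.6 to 76.1 in bone marrow, and no 2 arrays were identical. Lymphocyte marker genes were brighter on every spleen array than on any bone marrow array, and neutrophil genes were dimmer. Transcripts of another tissue were highest in 4 libraries. Over 10 hepatocyte genes, log2 intensity averaged 9.47 in spleen baclofen 5 day replicate 5, 9.70 in spleen vehicle 5 day replicate 3 and 7.18 in replicate 1 of that group. The average of 10 skeletal muscle genes was 9.97 in bone marrow baclofen 1 day replicate 3. These 4 stood out most, and no cut was set. Spleen vehicle 5 day replicate 4, with a hepatocyte average of 6.18, was not left out. The counts below, other than those of the level within single groups, were repeated without these 4, and the number of the 8 genes past the threshold then moved by 1 in 2 of the comparisons, as given there.

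All 8 genes were lower in spleen than in bone marrow, by 3.39-fold for Treml1 to 5.73-fold for Gp1bb. These folds, and the level differences given with an SE below, average the 4 treatment and time groups with equal weight. They can therefore differ from the gap between the means over 20 arrays. Within the 4 treatment and time groups the folds ran from 2.92 (Treml1, baclofen at 5 days) to 6.69 (Gp1bb, vehicle at 5 days). The comparison asks where these transcripts are most abundant. On the log2 scale, Pf4 averaged 11.31 ± 0.32 in spleen and 13.30 ± 0.20 in bone marrow (SD, n = 20 arrays each). Its 20 spleen values ran from 10.64 through a median of 11.27 to 11.88, and its bone marrow values from 12.88 through 13.28 to 13.82. The groups of arrays did not overlap, and the same held for the other 7 genes: every spleen array lay below every bone marrow array for 8 of 8 genes, against 23.9% of all genes. The difference of Pf4 was -2.0 ± 0.08 (SE; limma with Benjamini-Hochberg adjustment over 18193 genes, adjusted p = 1.32e-23). Its genomic neighbour Ppbp averaged 12.08 ± 0.34 in spleen and 13.95 ± 0.16 in bone marrow, a difference of -1.89 ± 0.08.

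Itga2b averaged 9.24 ± 0.25 in spleen and 11.11 ± 0.25 in bone marrow, a difference of -1.90 ± 0.07. By the probe sets used, the 3 subunits of the von Willebrand factor receptor had the largest gaps of the 8 genes. Gp1bb averaged 8.94 ± 0.39 in spleen and 11.44 ± 0.29 in bone marrow (-2.52 ± 0.10). Its dimmer probe set had a smaller gap, with averages of 6.25 in spleen and 6.85 in bone marrow. Gp9 averaged 8.49 ± 0.29 and 10.65 ± 0.28 (-2.16 ± 0.09), and Gp5 averaged 8.08 ± 0.34 and 10.36 ± 0.26 (-2.30 ± 0.08), each in spleen and then in bone marrow. Treml1 had the smallest gap, with 8.33 ± 0.27 in spleen and 10.05 ± 0.30 in bone marrow (-1.76 ± 0.08). Vwf, the one gene of the 8 that endothelial cells also express, averaged 8.68 ± 0.33 in spleen and 10.69 ± 0.30 in bone marrow (-2.05 ± 0.09). Over the 8 genes the adjusted p ran from 2.10e-24 to 1.50e-21. Levels of different genes are not compared with each other, since each rests on its own probe set.

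Of all 18193 genes, 88.9% passed the same threshold (adjusted p under 0.05) and 64% passed it as lower in spleen, so the calls alone say little about these 8. In size, the median difference of the 8 was -2.03, against -0.25 over all genes. Within each of the 4 treatment and time groups, 8 of 8 genes were again called lower in spleen. The median of the 8 was -1.88 in baclofen at 5 days, -2.23 in vehicle at 5 days, -2.12 in baclofen at 1 day and -1.89 in vehicle at 1 day. In baclofen at 5 days 82.6% of all genes were called and 58.7% were called lower, and in vehicle at 5 days 75.2% and 54.9%. In baclofen at 1 day 75.9% were called and 54.8% called lower, and in vehicle at 1 day 73.2% and 53.8%. Joint quantile normalization moved the median of all genes to -0.05, and the median of the 8, taken relative to that of all genes, was -1.61 with it and -1.77 without it. The split of all calls moved with it too: 44.3% were higher in spleen with joint quantile normalization and 28% without. Spleen and bone marrow were extracted with different kits, spleen with Qiagen mini columns and bone marrow with Paxgene Bone Marrow, so tissue and kit cannot be told apart.

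**Figure D1:**
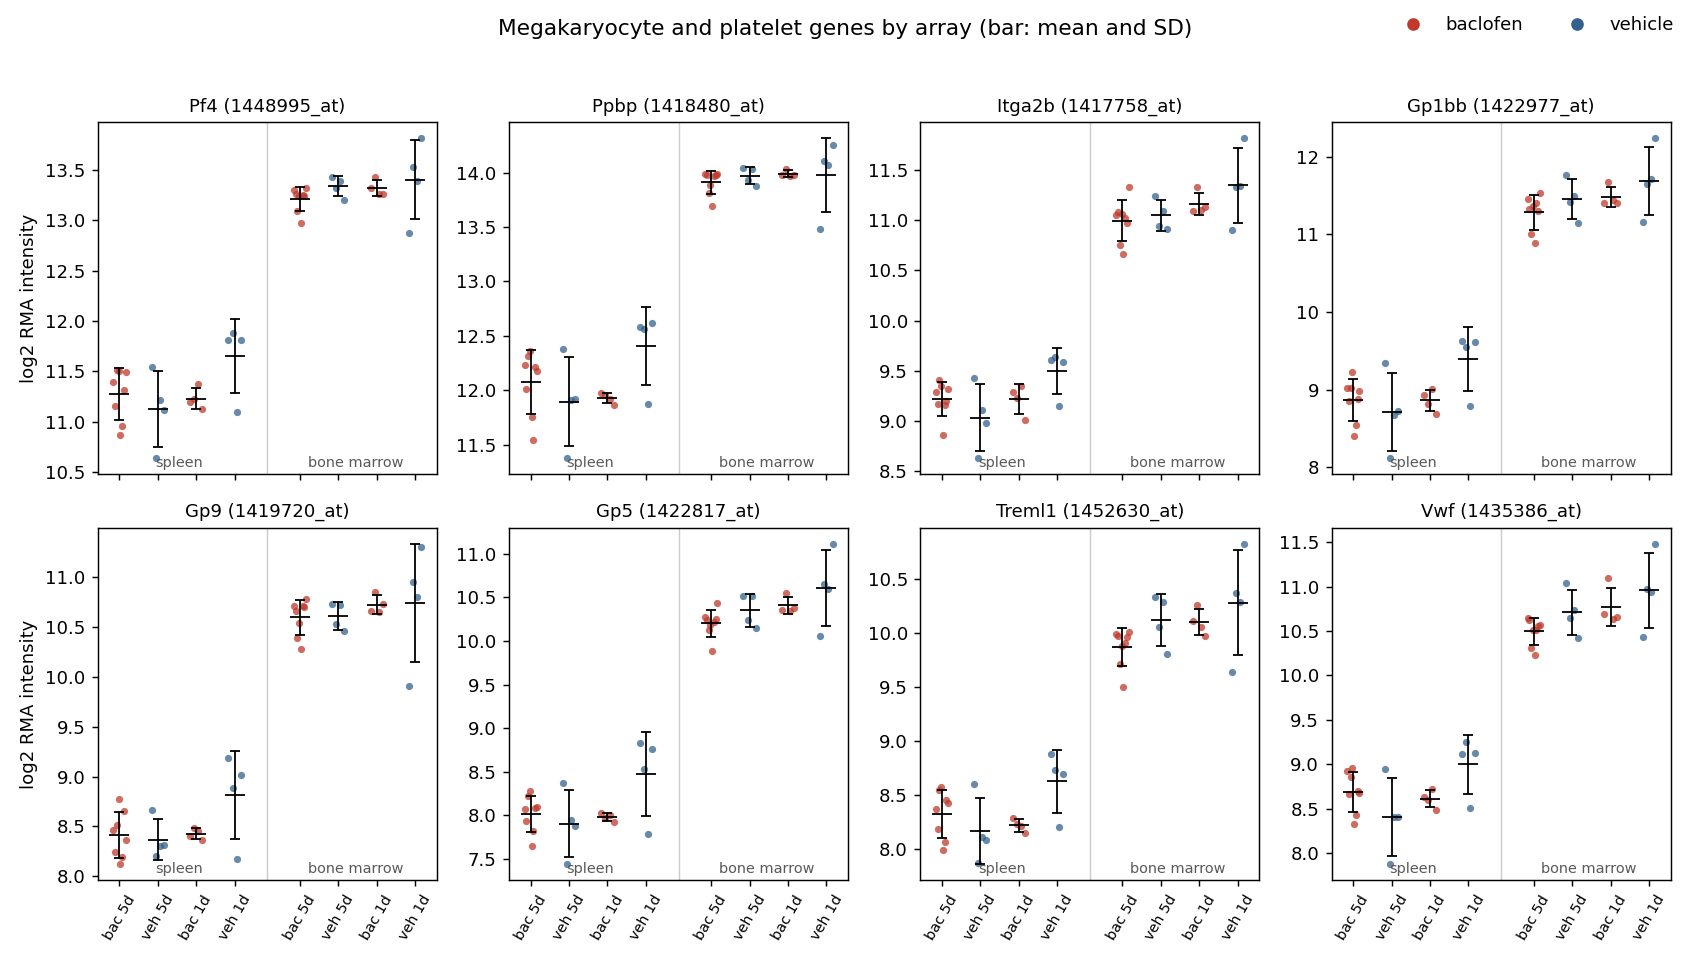
Log2 RMA intensity of the 8 genes on each of the 40 spleen and bone marrow arrays, by treatment and number of days, with the mean and SD of each group. The 20 spleen arrays lie below the 20 bone marrow arrays in every panel, and in spleen vehicle at 1 day 1 of 4 arrays lies apart from the other 3.

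In liver, a tissue in which adult mice have few megakaryocytes, the 8 genes were measured on 19 arrays. The mean log2 intensity was 5.60 ± 0.11 for Pf4, 3.96 ± 0.25 for Ppbp, 3.66 ± 0.15 for Gp1bb and 4.66 ± 0.10 for Gp5 (SD). It was 5.20 ± 0.29 for Vwf, 5.81 ± 0.15 for Treml1, 6.13 ± 0.11 for Gp9 and 6.98 ± 0.09 for Itga2b. The floor of the tested genes, the 40th percentile of mean log2 intensity, was 5.42 there, 6.31 in spleen and 6.39 in bone marrow. All 8 genes exceeded it in spleen and in bone marrow. In liver 5 of the 8 did: Pf4, Treml1, Gp9, Itga2b and, through its other probe set, Gp1bb. The liver values were tested against neither tissue. The dim probe set of Gp1bb averaged 6.25 ± 0.14 in spleen and 6.85 ± 0.14 in bone marrow, near the floor. It disagreed with the brighter set in spleen at 1 day, where its baclofen minus vehicle difference was 0.04 ± 0.09.

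The other genes of megakaryocytes and platelets were taken from 6 lists holding 111 genes, of which 102 had a probe set. Of these 102, 91.2% passed the threshold and 79.4% passed it as lower in spleen, against 88.9% and 64% of all genes. The receptors and the thrombopoietin list lay nearest to the share of all genes. Of 19 platelet surface receptors 13 were lower, 2 higher and 4 did not pass, with a median of -1.11. Of 20 genes for granule cargo and secretion 17 were lower, 2 higher and 1 did not pass (median -0.86). The cytoskeletal and proplatelet list had 15 of 17 lower, 1 higher and 1 that did not pass (median -0.86). Of 20 genes for signalling and eicosanoid synthesis 15 were lower, 3 higher and 2 did not pass (median -0.65). The transcription factors had 16 of 19 lower and 3 higher (median -0.54), and the thrombopoietin list had 5 of 7 lower, 1 higher and 1 that did not pass (median -0.26). The last median is close to the -0.25 of all genes.

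Examples named after their values were seen show what these lists hold. Genes within or beyond the range of the 8 included Tubb1, the megakaryocyte beta tubulin (-2.35 ± 0.09), Nfe2, a transcription factor needed for platelet release (-2.69 ± 0.16), and Rab27b, a granule transport protein (-2.99 ± 0.12). F13a1, the coagulation factor XIII A chain, which macrophages also make, was lower by more (-3.55 ± 0.17). The genes that were higher in spleen included Jam3, a junctional adhesion molecule (2.44 ± 0.05), Ccl5, a chemokine that T cells also make (2.00 ± 0.08), and Mef2c, a transcription factor that B cells also express (1.08 ± 0.07). Jam3, Ccl5 and Mef2c are not specific to megakaryocytes, and the share of other cells in their signal was not tested.

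**Figure D2:**
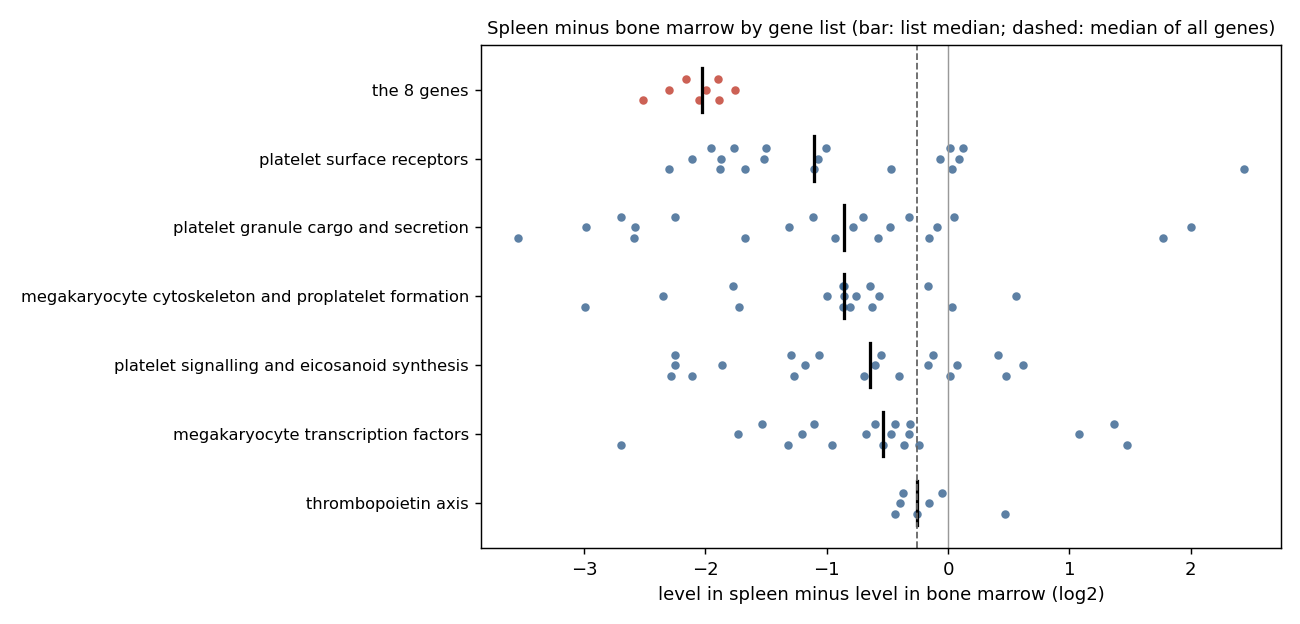
Spleen minus bone marrow difference on the log2 scale for each of the 8 genes and for each gene of the 6 lists, with the list median as a bar and the median of all genes, -0.25, as a dashed line. The 8 genes lie between -2.52 and -1.76, and the lists spread on both sides of 0.

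In spleen after 1 dose, all 8 genes had lower means in baclofen than in vehicle, by 0.28 to 0.53 on the log2 scale, and 0 of 8 passed the threshold. The comparison asks whether a single dose of baclofen goes with a change of these transcripts. Of 10916 genes tested, 15.5% passed in either direction and 7.91% passed as lower, and 3498 had an unadjusted p under 0.05. Of the 8 genes, 6 had an unadjusted p under 0.05, and the adjusted p values of all 8 ran from 0.0815 to 0.191. The result turned on 1 vehicle library, replicate 3, as the values show.

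Pf4 read 11.19, 11.23, 11.38 and 11.12 in baclofen replicates 1 to 4, against 11.82, 11.88, 11.10 and 11.81 in vehicle replicates 1 to 4. Vehicle replicates 1, 2 and 4 lay above every baclofen array and replicate 3 lay below every one. Its difference was -0.42 ± 0.19 (95% interval -0.82 to -0.02, adjusted p = 0.133 by limma). Ppbp, the other granule chemokine, read 11.97, 11.95, 11.92 and 11.86 in baclofen, against 12.58, 12.57, 11.87 and 12.62 in vehicle. The 4 baclofen arrays of Ppbp lay close together, and vehicle replicate 3 lay among them. Its difference was -0.48 ± 0.20 (interval -0.90 to -0.06, adjusted p = 0.106 by limma).

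Itga2b, the integrin subunit, read 9.29, 9.23, 9.35 and 9.01 in baclofen, against 9.61, 9.64, 9.15 and 9.59 in vehicle. Again 3 vehicle arrays stood above all baclofen arrays and replicate 3 did not. The difference, -0.28 ± 0.14, was the smallest of the 8 (interval -0.58 to 0.03, adjusted p = 0.191 by limma). Gp1bb read 8.93, 8.81, 9.01 and 8.69 in baclofen, against 9.63, 9.54, 8.79 and 9.62 in vehicle. Vehicle replicate 3 fell inside the baclofen range and the other 3 above it. The difference of Gp1bb, -0.53 ± 0.22, was the largest of the 8 (interval -0.99 to -0.07, adjusted p = 0.103 by limma).

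Gp9 read 8.40, 8.49, 8.45 and 8.36 in baclofen, against 9.18, 8.89, 8.18 and 9.01 in vehicle. Gp5 read 8.03, 7.96, 8.00 and 7.92 in baclofen, against 8.83, 8.53, 7.78 and 8.76 in vehicle. For both of these receptor subunits, vehicle replicate 3 was the lowest of the 8 arrays and the other 3 vehicle arrays were the highest. Their differences were -0.39 ± 0.17 (interval -0.75 to -0.03, adjusted p = 0.128 by limma) and -0.50 ± 0.20 (interval -0.91 to -0.08, adjusted p = 0.0911 by limma). Treml1, the granule receptor, read 8.29, 8.23, 8.21 and 8.15 in baclofen, against 8.88, 8.73, 8.21 and 8.70 in vehicle, and had the smallest adjusted p of the 8, 0.0815 by limma, at a difference of -0.41 ± 0.16. Vwf read 8.64, 8.60, 8.72 and 8.49 in baclofen, against 9.12, 9.25, 8.51 and 9.12 in vehicle (difference -0.39 ± 0.19, adjusted p = 0.160 by limma). In both genes vehicle replicate 3 lay within the baclofen values.

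Without vehicle replicate 3, 8 of 8 genes passed the threshold as lower in baclofen, and 27.9% of all genes were then called, 14.8% of all as lower. The differences ran from -0.74 for Gp1bb to -0.39 for Itga2b, with adjusted p from 0.00514 for Gp5 to 0.0486 for Itga2b. Array weights called 8 of 8 too, against 33.4% of all genes with those weights. limma estimated these weights from the same intensities, giving less weight to arrays that deviate from the fit. They are not a separate measure of quality, so this call is not separate support. The RNA quality covariate did not move the count. The direction of the 8 genes was the same with any 1 of the 8 arrays left out, as the plot of left-out arrays shows. Leaving out spleen vehicle 5 day replicate 1, which enters through the shared estimate of spread, or the 4 libraries with transcripts of another tissue called 1 gene, Treml1. The share of all genes called in these settings is not given here.

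**Figure D3:**
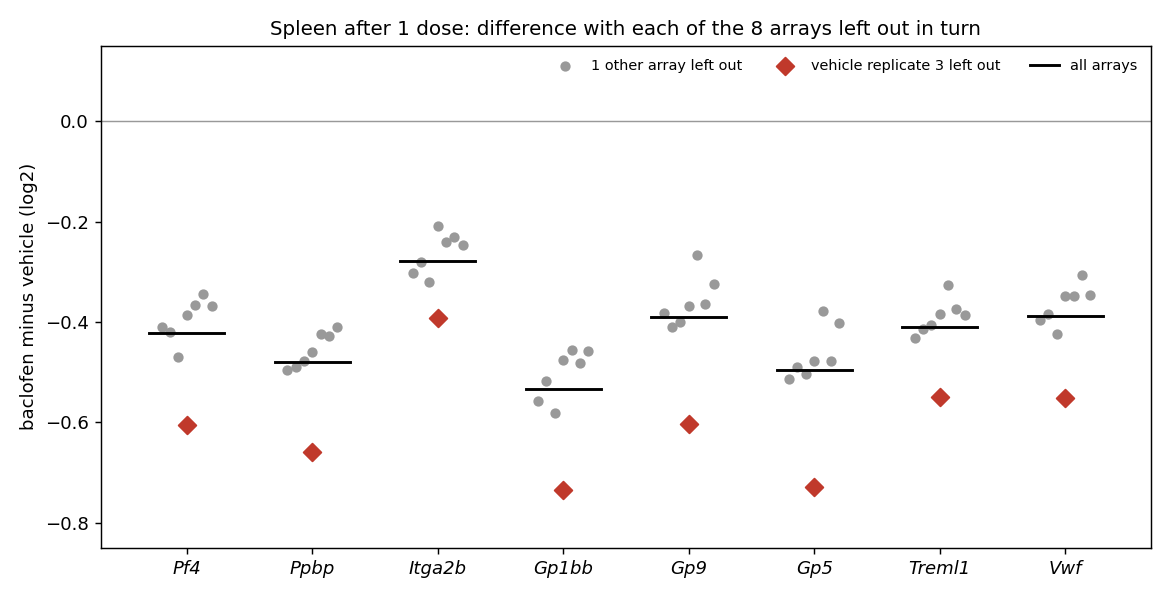
Difference between baclofen and vehicle in spleen after 1 dose (log2) for each gene, with all arrays (line) and with each of the 8 arrays of the comparison left out in turn (points). All values lie below 0, and leaving out vehicle replicate 3 gives the lowest value for each of the 8 genes, down to -0.74 for Gp1bb.

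Other cell types moved with the same library. The mean log2 intensity of 7 neutrophil genes was 9.57 to 9.89 in baclofen at 1 day, against 9.75 in vehicle replicate 3 and 10.77 to 11.48 in the other 3 vehicle arrays. Summed intensities ran from 12620 to 15593 in baclofen and from 14411 to 45130 in vehicle. For 11 erythroid genes the mean was 10.49 to 11.10 in baclofen, against 10.01 in vehicle replicate 3 and at least 11.30 in the others, with sums of 27601 to 35792 in baclofen and 18877 to 63766 in vehicle. The 6 lymphocyte genes averaged 10.97 to 11.19 in baclofen, against 11.28 in vehicle replicate 3 and 10.28 to 10.93 in the others. In vehicle replicate 3, neutrophil and erythroid genes were lowest of the 4 vehicle arrays, as were the 8 genes, and lymphocyte genes were highest. Endothelial genes, 14 in all, overlapped between the groups (8.13 to 8.42 in baclofen, 8.25 to 8.45 in vehicle). The part of these cell types in the result was not tested.

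Of the 92 listed genes tested in spleen after 1 dose, 9 passed (9.78%), against 15.5% of all genes. Among 19 transcription factors 2 rose and 0 fell: Mef2c (0.72 ± 0.17, adjusted p = 0.00791 by limma) and Etv6, an ETS-family repressor (0.31 ± 0.09, 0.0297). Among 20 granule genes 0 rose and 3 fell: Angpt1, angiopoietin 1 (-0.49 ± 0.12, adjusted p = 0.00990), Vamp8, which fuses granules with the membrane (-0.25 ± 0.07, 0.0261), and F13a1 (-1.52 ± 0.46, 0.0319). Pear1, a platelet aggregation receptor, rose (0.22 ± 0.07) and F2rl2, the thrombin receptor subunit PAR3, fell (-0.44 ± 0.13) among 14 surface receptors. Sh2b3, which restrains signalling of the thrombopoietin receptor, rose (0.51 ± 0.13) among 5 genes of that axis, and the adaptor Lcp2 fell (-0.39 ± 0.12) among 19 signalling genes. Of 15 cytoskeletal genes 0 passed, and those with the largest differences were Parvb (-0.47 ± 0.23) and Tubb1 (-0.40 ± 0.20). List medians ran from -0.18 for surface receptors to 0.11 for the thrombopoietin list, against -0.42 for the 8 genes and -0.03 for all genes.

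Several of these calls rested on single libraries of spleen at 1 day. That of Etv6 was lost without baclofen replicate 1, 2 or 4 or vehicle replicate 1 (adjusted p up to 0.104 by limma), that of Pear1 without baclofen replicate 1 or 4 or vehicle replicate 1 or 2 (up to 0.132), and that of F13a1 without baclofen replicate 1, 2 or 4 or vehicle replicate 1 or 2 (up to 0.118). The call of Vamp8 was lost without baclofen replicate 1 or 4 or vehicle replicate 1, 2 or 4 (up to 0.0859), and that of F2rl2 without the same 5 or baclofen replicate 2 (up to 0.0859). The call of Lcp2 was lost without any of 7 of the 8 libraries, all but baclofen replicate 3 (up to 0.113). Those of Mef2c, Angpt1 and Sh2b3 were kept with any 1 library left out. With the probe sets of a gene averaged, the calls of Sh2b3 (adjusted p = 0.143 by limma), Etv6 (0.779) and Pear1 (0.186) were lost, and a fit of the compared groups alone lost 7 of the 9, all but Mef2c and Angpt1.

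In spleen after 5 daily doses, all 8 genes had higher means in baclofen than in vehicle, by 0.05 to 0.28 on the log2 scale, and 0 of 8 passed (none had an unadjusted p under 0.05), against 4.43% of all genes. Pf4 ran from 10.87 through a median of 11.36 to 11.52 over the 8 baclofen arrays, against 11.55, 10.64, 11.21 and 11.12 in the 4 vehicle arrays. The baclofen values of Pf4 lay within the vehicle range, and the difference was 0.15 ± 0.16 (interval -0.20 to 0.49, adjusted p = 0.579 by limma). Ppbp ran from 11.54 through 12.19 to 12.36 in baclofen, against 12.38, 11.37, 11.91 and 11.92 in vehicle, a difference of 0.18 ± 0.17. Itga2b ran from 8.86 through 9.25 to 9.40 in baclofen, against 9.43, 8.63, 9.10 and 8.98 in vehicle, a difference of 0.19 ± 0.13. In all 3 genes vehicle replicate 1 was the highest and vehicle replicate 2 the lowest of the 12 arrays.

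In Gp1bb, Gp5 and Treml1 the same vehicle arrays were again the highest and the lowest. Gp1bb ran from 8.41 through 8.93 to 9.22 in baclofen, against 9.34, 8.12, 8.67 and 8.72 in vehicle (difference 0.15 ± 0.19). Gp9 ran from 8.12 through 8.41 to 8.78 in baclofen, against 8.66, 8.20, 8.30 and 8.31 in vehicle (0.05 ± 0.15), with baclofen arrays at both ends. Gp5 ran from 7.65 through 8.07 to 8.27 in baclofen, against 8.37, 7.44, 7.94 and 7.87 in vehicle (0.11 ± 0.17). Treml1 ran from 7.99 through 8.40 to 8.58 in baclofen, against 8.60, 7.87, 8.11 and 8.09 in vehicle (0.16 ± 0.14). Vwf had the largest difference, 0.28 ± 0.16 (interval -0.06 to 0.62, adjusted p = 0.267 by limma), with values from 8.33 through 8.69 to 8.96 in baclofen, against 8.95, 7.87, 8.40 and 8.40 in vehicle. The highest Vwf value was a baclofen array and the lowest was vehicle replicate 2. Without vehicle replicate 2 the differences of Pf4, Gp1bb, Gp9 and Gp5 turned negative, down to -0.05 for Gp1bb.

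Of the 92 listed genes tested in spleen at 5 days, 6 passed (6.52%), against 4.43% of all genes, and all 6 rose in baclofen. Of all genes called, 333 rose and 151 fell. The 6 were Gata2, a transcription factor of early progenitors and megakaryocytes (0.41 ± 0.07, adjusted p = 0.00434 by limma), Pear1 (0.27 ± 0.06), Jam3 (0.29 ± 0.08), Cavin2, a caveola protein of platelets (0.40 ± 0.10), Jak2, the kinase of the thrombopoietin receptor (0.25 ± 0.06), and Sh2b3 (0.43 ± 0.11). That is 1 of 19 transcription factors, 2 of 14 surface receptors, 1 of 15 cytoskeletal genes and 2 of 5 genes of the thrombopoietin axis. Of 20 granule genes and 19 signalling genes 0 passed. Those with the largest differences were F13a1 (-0.32 ± 0.40) and Stxbp2 (0.16 ± 0.06) in the granule list and Mylk (0.35 ± 0.12) and Mrvi1 (0.29 ± 0.15) in the signalling list. Gata2 kept its call with any 1 library left out, though 0 of the 6 passed with the replicate number as a block (adjusted p = 0.0626 for Gata2 by limma). With that block the calls over all genes fell to 61 from 484. Averaged probe sets lost 4, Cavin2, Jak2, Jam3 and Sh2b3, and leaving out the 4 libraries with transcripts of another tissue lost Jak2, Pear1 and Sh2b3. The call of Pear1 also did not hold with vehicle replicate 2 left out (adjusted p = 0.0775 by limma). The call of Jak2 was lost without vehicle replicate 1 or 2 (up to 0.0711), that of Cavin2 without baclofen replicate 1 or 6 or vehicle replicate 2 (up to 0.129), and that of Sh2b3 without baclofen replicate 1, 2, 4, 5 or 6 or vehicle replicate 1, 2 or 3 (up to 0.165). Jam3 lost it without any of 13 of the 20 spleen libraries (up to 0.196).

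The baclofen difference in spleen was higher at 5 days than at 1 day by 0.44 for Gp9 to 0.69 for Gp1bb, and 0 of 8 genes passed, against 0% of all genes. The dimmer probe set of Gp1bb gave a smaller change, 0.10 ± 0.12. Of the 8, 7 had an unadjusted p under 0.05, as had 858 of all 10916 genes, and the adjusted p values of all 8 ran from 0.522 to 0.672 by limma. The 5-day and 1-day effects of Treml1 were 0.16 ± 0.14 and -0.41 ± 0.16, a change of 0.57 ± 0.21 (interval 0.13 to 1.01). For Vwf they were 0.28 ± 0.16 and -0.39 ± 0.19, a change of 0.67 ± 0.25. The vehicle means were also lower at 5 days than at 1 day for all 8 genes, by 0.45 for Gp9 to 0.68 for Gp1bb. For the dimmer probe set of Gp1bb this difference was 0.02 ± 0.09. The 8 genes varied together within groups, as described below, so these are not 8 separate results. Pf4 averaged 11.13 ± 0.38 in vehicle at 5 days and 11.65 ± 0.37 in vehicle at 1 day (SD, n = 4 each), a difference of -0.52 ± 0.19. All 8 genes had an unadjusted p under 0.05 here, as had 378 of all 10916 genes. After adjustment 0 of 8 passed (adjusted p = 0.962 for each by limma), as did 0% of all genes. The baclofen groups were nearly level, with Pf4 at 11.28 ± 0.26 (n = 8) at 5 days and 11.23 ± 0.11 (n = 4) at 1 day.

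**Figure D4:**
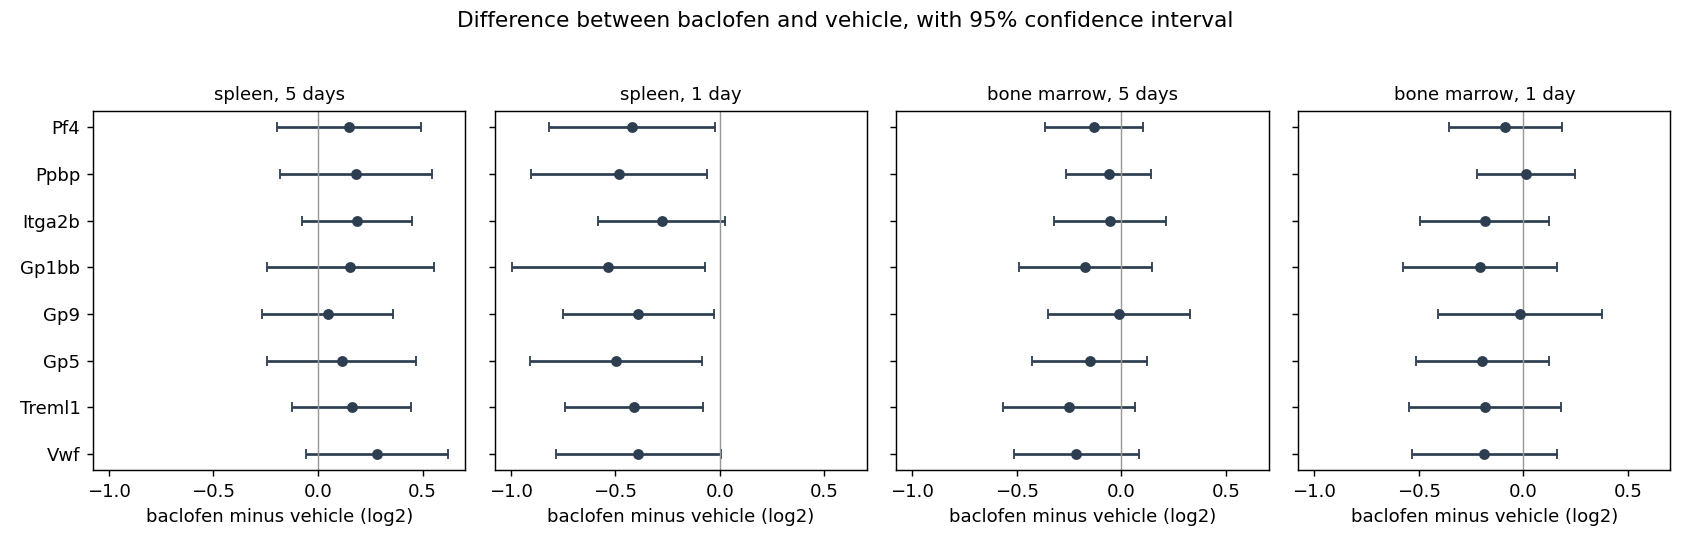
Baclofen minus vehicle difference on the log2 scale with its 95% confidence interval for each gene, in spleen and bone marrow at 5 days and 1 day. The 8 points lie above 0 in spleen at 5 days and below 0 in spleen at 1 day, where 6 of 8 intervals exclude 0, and all intervals of the other 3 comparisons include 0.

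In bone marrow after 1 dose, 0 of 8 genes passed (none had an unadjusted p under 0.05), against 7.36% of all genes, and the differences ran from -0.21 for Gp1bb to 0.01 for Ppbp. Pf4 read 13.32, 13.44, 13.26 and 13.26 in baclofen, against 12.88, 13.53, 13.39 and 13.82 in vehicle. The baclofen arrays lay between vehicle replicate 1, the lowest, and replicate 4, the highest, and the difference was -0.08 ± 0.13 (interval -0.35 to 0.19, adjusted p = 0.731 by limma). Ppbp read 13.98, 14.03, 13.97 and 13.98 in baclofen, against 13.48, 14.11, 14.07 and 14.25 in vehicle. Itga2b read 11.09, 11.33, 11.10 and 11.14 in baclofen, against 10.91, 11.33, 11.34 and 11.82 in vehicle (difference -0.18 ± 0.15). The same vehicle arrays were lowest and highest for both.

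Among the receptor subunits, Gp1bb read 11.40, 11.67, 11.45 and 11.41 in baclofen, against 11.16, 11.64, 11.71 and 12.24 in vehicle (difference -0.21 ± 0.18, interval -0.57 to 0.16). Gp9 read 10.66, 10.85, 10.65 and 10.73 in baclofen, against 9.91, 10.95, 10.80 and 11.30 in vehicle (-0.02 ± 0.19). Gp5 read 10.36, 10.56, 10.35 and 10.38 in baclofen, against 10.06, 10.66, 10.59 and 11.11 in vehicle (-0.20 ± 0.15). Vehicle replicates 1 and 4 enclosed the baclofen arrays in each of the 3. Treml1 read 10.11, 10.26, 10.06 and 9.98 in baclofen, against 9.65, 10.38, 10.29 and 10.83 in vehicle (-0.18 ± 0.17), so that 3 vehicle arrays lay above all baclofen arrays and replicate 1 below them. Vwf read 10.69, 11.09, 10.64 and 10.66 in baclofen, against 10.43, 10.97, 10.94 and 11.48 in vehicle (-0.19 ± 0.17). Without both vehicle replicates 1 and 4, a choice made after seeing the data, 0 of 8 genes passed as before.

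In bone marrow after 5 doses, 0 of 8 genes passed (none had an unadjusted p under 0.05), against 10.1% of all genes, and all 8 differences were negative with equal weights and no covariate, from -0.25 ± 0.15 for Treml1 (interval -0.57 to 0.06, adjusted p = 0.305 by limma) to -0.01 ± 0.16 for Gp9. Treml1 ran from 9.51 through 9.94 to 10.02 over the 8 baclofen arrays, against 10.33, 10.06, 10.29 and 9.81 in vehicle. Vwf ran from 10.22 through 10.53 to 10.65 in baclofen, against 11.04, 10.65, 10.74 and 10.42 in vehicle (-0.21 ± 0.14). For both, 3 of 4 vehicle arrays lay above the highest baclofen array and replicate 4 lay within the baclofen values. Pf4 ran from 12.97 through 13.24 to 13.33 in baclofen, against 13.44, 13.32, 13.39 and 13.21 in vehicle (-0.13 ± 0.11). Ppbp ran from 13.70 through 13.97 to 13.99 in baclofen, against 14.05, 13.93, 14.04 and 13.88 in vehicle (-0.06 ± 0.10). These chemokine values overlapped between the groups. With an RNA quality covariate the difference was 0.021 for Ppbp and 0.13 for Gp9.

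The integrin and the receptor subunits also overlapped in bone marrow at 5 days. Itga2b ran from 10.67 through 11.04 to 11.33 in baclofen, against 11.25, 10.94, 11.09 and 10.91 in vehicle (-0.05 ± 0.13). Gp1bb ran from 10.89 through 11.34 to 11.53 in baclofen, against 11.77, 11.42, 11.49 and 11.14 in vehicle (-0.17 ± 0.15). Gp5 ran from 9.89 through 10.23 to 10.44 in baclofen, against 10.51, 10.25, 10.51 and 10.14 in vehicle (-0.15 ± 0.13). Gp9 was the closest, from 10.28 through 10.68 to 10.78 in baclofen, against 10.73, 10.53, 10.72 and 10.46 in vehicle. The change of the baclofen effect between 5 days and 1 day in bone marrow ran from -0.08 for Ppbp to 0.13 for Itga2b, with 0 of 8 genes past the threshold, against 0% of all genes. Vehicle at 5 days was below vehicle at 1 day by up to 0.30 (Itga2b), again with 0 of 8 genes, and 0% of all genes, past the threshold.

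Of the 94 listed genes tested in bone marrow at 1 day, 4 passed (4.26%), against 7.36% of all genes, of which 339 rose and 464 fell. The 4 fell: Nfe2 (-0.30 ± 0.07, adjusted p = 0.0111 by limma) and Lyl1, a helix-loop-helix factor (-0.28 ± 0.08), of 18 transcription factors, Lcp2 (-0.45 ± 0.10) of 19 signalling genes and Ptgir, the prostacyclin receptor (-0.62 ± 0.16), of 16 surface receptors. Of 16 cytoskeletal, 20 granule and 5 thrombopoietin-axis genes 0 passed. Their largest differences were those of Vcl (-0.28 ± 0.10) and Actn1 (-0.24 ± 0.12), of Rab27a (-0.49 ± 0.19) and Sparc (0.72 ± 0.50), and of Tyk2 (-0.21 ± 0.08) and Sh2b3 (0.16 ± 0.09). The call of Nfe2 was lost without baclofen replicate 1 (adjusted p = 0.0544) and that of Lcp2 without baclofen replicate 1 or 4 (up to 0.0632). Lyl1 lost its call without baclofen replicate 1, 2 or 4 or vehicle replicate 1 or 3 (up to 0.145), and Ptgir without baclofen replicate 1, 2 or 4 or vehicle replicate 3 or 4 (up to 0.107). Without vehicle replicates 1 and 4 together, 0 of these 4 kept theirs, and a fit of the compared groups alone lost Nfe2 and Lyl1.

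At 5 days in bone marrow, 5 of the 94 listed genes passed (5.32%), against 10.1% of all genes. Gata1, the transcription factor of megakaryocytes and red cells, rose (0.31 ± 0.08, adjusted p = 0.0276 by limma), 1 of 18 factors, as did Stat5a (0.16 ± 0.05), 1 of 5 genes of the thrombopoietin axis. The 11 erythroid marker genes averaged 12.11 to 12.47 in baclofen and 11.54 to 12.08 in vehicle at that time, and their part in the value of Gata1 was not tested. Actn1, an actin cross-linker, fell (-0.38 ± 0.10), 1 of 16 cytoskeletal genes, and Lcp2 (-0.34 ± 0.09) and Plcg2 (-0.21 ± 0.06), both in the signal path of platelet collagen receptors, fell among 19 signalling genes. Of 20 granule genes and 16 surface receptors 0 passed, with Rab27a (-0.42 ± 0.16), Sparc (-0.39 ± 0.43), Ptgir (-0.38 ± 0.14) and Cd9 (-0.28 ± 0.12) at the largest differences. The call of Actn1 was lost without vehicle replicate 1 (adjusted p = 0.126). That of Lcp2 was lost without baclofen replicate 5 or 6 or vehicle replicate 1 or 3 (up to 0.136), and that of Gata1 without baclofen replicate 1, 2 or 5 or vehicle replicate 1 or 4 (up to 0.135). Plcg2 lost its call without baclofen replicate 1, 2, 5 or 6 or vehicle replicate 1 or 4 (up to 0.178), and Stat5a without any of 14 of the 20 bone marrow libraries (up to 0.194). With the replicate number as a block 0 of the 5 passed, and the calls over all genes fell to 30 from 1100. Averaged probe sets lost Actn1 and Stat5a, and the RNA quality covariate lost Gata1, Lcp2 and Stat5a.

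The baclofen effect was then compared between the tissues, in 1 fit over 40 arrays and the 10210 genes tested in both. At 5 days the effect was higher in spleen than in bone marrow for all 8 genes, by 0.06 for Gp9 to 0.50 for Vwf, and 0 of 8 passed, against 2.17% of all genes. Vwf had the only unadjusted p under 0.05 of the 8, a cut that 2398 of all 10210 genes passed. Its effects were 0.28 ± 0.16 in spleen and -0.21 ± 0.14 in bone marrow, a difference of 0.50 ± 0.22 (interval 0.04 to 0.95, adjusted p = 0.171 by limma). At 1 day the effect was lower in spleen for all 8 genes, by 0.09 for Itga2b to 0.49 for Ppbp, and 0 of 8 passed, against 1.22% of all genes. Ppbp had the only unadjusted p under 0.05 of the 8 at that time, a cut that 2183 of all 10210 genes passed. Its effects were -0.48 ± 0.20 in spleen and 0.01 ± 0.11 in bone marrow (difference -0.49 ± 0.24, interval -0.98 to -0.01, adjusted p = 0.220 by limma). Without spleen vehicle 1 day replicate 3, 1 gene passed at 1 day, Ppbp (adjusted p = 0.0371), and 16.6% of all genes did. At 5 days, leaving out the 4 libraries with transcripts of another tissue called 1 of the 8, Vwf (adjusted p = 0.0290 by limma). The share of all genes called in that setting is not given here, so this call lacks its background.

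Within groups the 8 genes varied together from array to array, as the plot of deviations shows. Each array's deviation from its group mean was taken for each gene, and the 28 pairs of genes were correlated over the 20 arrays of a tissue. In spleen Pearson's r ran from 0.75 (Itga2b with Gp9) through a median of 0.94 to 0.98 (Gp1bb with Vwf), and in bone marrow from 0.85 (Ppbp with Itga2b) through 0.94 to 0.99 (Ppbp with Gp9). The median over all pairs of tested genes was 0.05 in spleen and 0.01 in bone marrow. Without the 2 arrays farthest from their group, the median r over the 28 pairs was 0.90 in spleen and 0.88 in bone marrow. Spearman's rho over all 20 arrays had a median of 0.90 in spleen and 0.89 in bone marrow. These are descriptions: the 8 values of an array share 1 RNA sample and 1 hybridization.

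**Figure D5:**
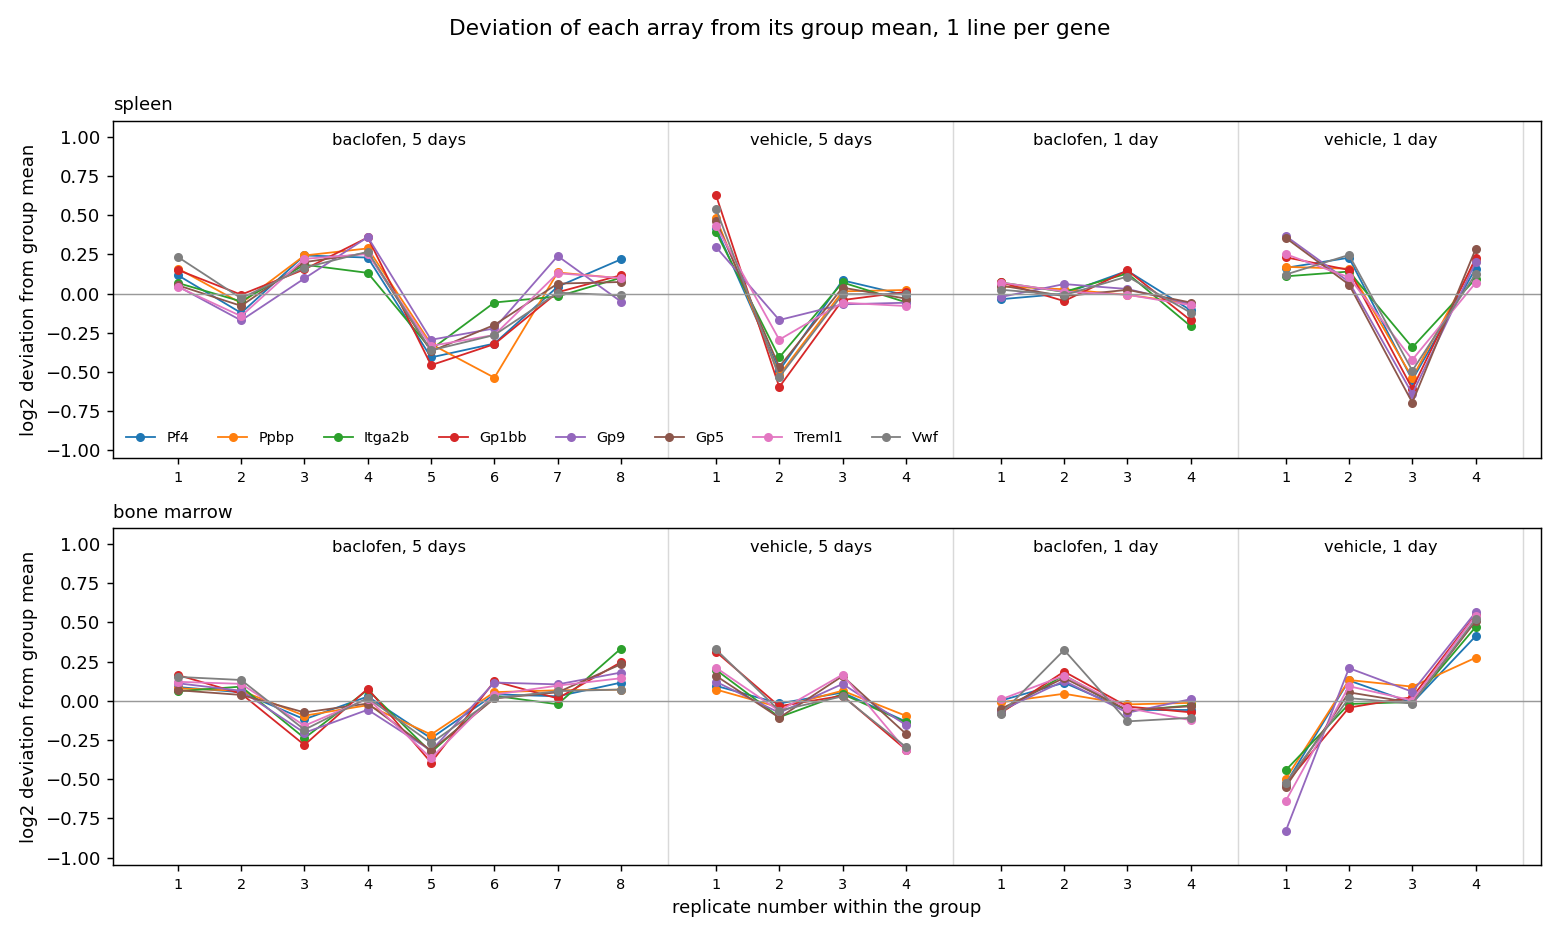
Deviation of each array from its group mean (log2) for each of the 8 genes, in spleen (top) and bone marrow (bottom), with arrays of a group side by side by replicate number. The 8 lines run together; the widest excursions are spleen vehicle 1 day replicate 3, spleen vehicle 5 day replicates 1 and 2, and bone marrow vehicle 1 day replicates 1 and 4.

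Averaged over the 8 genes, the deviation was -0.54 in spleen vehicle 1 day replicate 3, 0.46 and -0.44 in spleen vehicle 5 day replicates 1 and 2, and -0.57 and 0.48 in bone marrow vehicle 1 day replicates 1 and 4. In spleen baclofen at 5 days, replicates 5 and 6 were the lowest (-0.36 and -0.27) and replicate 4 the highest (0.27). The spread differed between the groups. In spleen the median SD of the 8 genes was 0.23 in baclofen and 0.38 in vehicle at 5 days, and 0.08 in baclofen and 0.36 in vehicle at 1 day. In bone marrow it was 0.17 in both at 5 days, and 0.10 in baclofen and 0.43 in vehicle at 1 day. The vehicle over baclofen ratio of SDs at 1 day had a median of 4.19 over the 8 genes and 1.44 over all genes in spleen, and of 4.24 and 1.07 in bone marrow. These ratios rest on 4 arrays a group and were not tested.

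Outside the 8, the genes whose deviations were most like the mean of the 8 were ranked over 10916 genes in each tissue. In spleen they were Alox12, platelet 12-lipoxygenase (r = 0.97), Tubb1 (0.97), Slc6a4, the serotonin transporter (0.93), Rgs18, a regulator of G-protein signalling (0.92), and Itgb3, the partner chain of Itga2b (0.92). Gas2l1 (0.91), Tmem40 (0.90) and the G-protein subunit gene Gnaz (0.89) followed. In bone marrow they were Slamf1 (0.98), Clec1b, the podoplanin receptor CLEC-2 (0.98), Mrvi1 (0.97), Alox12 (0.97), Tubb1 (0.97), Tgfb1i1 (0.97), Gas2l1 (0.97) and Gnaz (0.96). Alox12, Tubb1, Gas2l1 and Gnaz were thus among the 8 most alike in both tissues. Without the 2 arrays farthest from their group, r ran from 0.81 to 0.95 in spleen and from 0.92 to 0.96 in bone marrow for these genes. Each r is over 20 arrays that share their RNA and hybridization.

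Vwf, which endothelial cells also express, was set against an endothelial list. Over the 20 spleen arrays its deviations had r = 0.96 with the mean of the other 7 genes and -0.03 with the mean of 14 endothelial genes. In bone marrow r was 0.94 with the other 7 and 0.65 with the endothelial genes, and the last value was 0.36 without the 2 arrays farthest in the endothelial list. The mean of all 8 genes had r = 0.70 with 7 neutrophil genes in spleen (0.54 without 2 arrays), 0.04 with 11 erythroid genes and -0.08 with endothelial genes. In bone marrow it had r = 0.73 with endothelial genes (0.46 without 2 arrays), 0.69 with 8 macrophage genes (0.47) and 0.06 with neutrophil genes. The lists themselves share arrays with the 8 genes, so these values describe this set of libraries.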

How the data were processed

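RNA of spleen, bone marrow and liver was hybridized to Affymetrix arrays with a biotin label, per the labels' protocols. The deposited values are linear intensity values per probe set; RMA, which corrects background, normalizes by quantiles and summarises probes, and limma are named in the submitters' processing notes, with versions not given in the sources used here. Array medians differed between liver and the other tissues, and whether the tissues were normalized together is not stated.

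Of 45101 probe sets, 34945 had 1 gene symbol in the platform annotation, 932 several and 9160 none, and 64 were controls. The brightest probe set by mean stood for each of 18193 genes. The log2 intensity was fitted with limma 3.58.1 in R 4.3.3, one fit per tissue with all 4 groups, on the 10916 genes above the 40th percentile, and in 1 fit over 40 arrays for the tissue comparisons. P-values were adjusted by Benjamini-Hochberg over all genes tested, with a threshold of 0.05. The spleen fit was also run on simulated data, drawn for each probe set independently and with equal spread in all groups. That run does not cover the shared variation and the unequal spreads described above.

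The genes and lists were chosen with earlier results of these data known. Named by rule were the 9 genes, and the 8 genes per tissue whose deviations correlated best with the mean of the 8. In each list, up to 4 genes past the threshold with the smallest adjusted p were named per baclofen comparison. Where none passed, 2 with the largest difference were named. The list examples of the level difference were named outside these rules, after their values were seen. It is not known whether the replicate numbers pair samples. Same-numbered baclofen and vehicle arrays correlated at -0.46 to 0.27 (median -0.11), with 3 of 16 pairs over 0.1. Same-numbered spleen and bone marrow arrays correlated at -0.24 to 0.45 (median 0.12), with 11 of 20 over 0.1. Whether spleen and bone marrow arrays of the same number came from the same mouse was not tested. The main fits did not pair them. Alternatives were other filters, scalings and thresholds, array weights, a replicate block, an RNA quality covariate and left-out libraries. Leaving out both bone marrow vehicle 1 day replicates 1 and 4 was added after seeing the data. Promoters and gene coordinates are from RefSeq on GRCm38.p6; Vwf had no promoter entry.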

Additional observations from a re-analysis of the deposited data

Results flagged for a closer look

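Each of 64 combinations of a gene and a group was examined for an array far from the others of its group, by Dixon's ratio of gap to range at the 95% level, which chance passes in about 1 of 20 groups. There were 9 such values in 6 genes, and the genes share arrays, so these are not 9 separate events. In spleen vehicle 1 day, replicate 3 was the lowest of 4 for 5 genes, with log2 intensities of 11.10 for Pf4 (nearest other array 11.81), 11.87 for Ppbp (12.57), 9.15 for Itga2b (9.59), 8.79 for Gp1bb (9.54) and 8.51 for Vwf (9.12). In bone marrow baclofen 1 day, replicate 2 was the highest of 4 for Gp1bb at 11.67 (nearest 11.45), Gp5 at 10.56 (10.38) and Vwf at 11.09 (10.69). In spleen baclofen 5 day, replicate 5, which carried hepatocyte transcripts, was the lowest of 8 for Itga2b at 8.86 (nearest 9.16). The cause of these values was not tested.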

How the results depend on the processing

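The level difference between spleen and bone marrow was called for 8 of 8 genes under every setting run. In spleen at 1 day the number of the 8 past the threshold was 0, against 8 with array weights, 1 without the 4 libraries that carried transcripts of another tissue, and 0 to 8 with 1 library left out (8 without spleen vehicle 1 day replicate 3 and 1 without spleen vehicle 5 day replicate 1). Array weights called 2 in bone marrow at 5 days, 2 in bone marrow at 1 day, 2 for the tissue difference at 5 days and 1 for vehicle at 5 days against 1 day in bone marrow, against 0 with equal weights in each. With those weights 33.4% of all genes were called in spleen at 1 day, 40.3% and 22.1% in bone marrow at 5 days and 1 day, 16.6% for the tissue difference at 5 days and 4.79% for vehicle between the days. The tissue difference at 5 days had 1 without the 4 libraries, and that at 1 day had 0 to 1 with 1 library left out. The cause of these shifts was not tested. For the settings without the 4 libraries or without spleen vehicle 5 day replicate 1, the share of all genes called is not given here. Some bone marrow differences, uncalled with equal weights, changed sign. For the 5 day minus 1 day effect, the RNA quality covariate gave 0.092 for Pf4, 0.050 for Ppbp, 0.090 for Treml1 and 0.083 for Vwf, and array weights gave 0.092 for Pf4, 0.028 for Ppbp, 0.060 for Treml1 and 0.17 for Vwf. Without both vehicle 1 day libraries farthest from their group it was 0.013 for Pf4 and 0.036 for Ppbp, with the replicate block -0.018 for Gp9 and 0.00026 for Vwf, and without the 4 libraries -0.022 for Gp9. At 1 day Gp9 was 0.0097 without the 4 libraries, and Ppbp was -0.029 with the RNA quality covariate, -0.13 with array weights and -0.098 without both farthest libraries. At 5 days the RNA quality covariate gave 0.13 for Gp9 and 0.021 for Ppbp. Vehicle at 5 days minus 1 day was 0.00096 for Ppbp with arrays centred on their median. With 1 library left out, the 5 day minus 1 day effect in bone marrow ran from -0.18 to 0.13 for Pf4, -0.17 to 0.091 for Ppbp, -0.026 to 0.28 for Itga2b, -0.15 to 0.21 for Gp1bb, -0.18 to 0.28 for Gp9, -0.12 to 0.23 for Gp5, -0.25 to 0.15 for Treml1 and -0.20 to 0.14 for Vwf. Bone marrow at 1 day ran from -0.26 to 0.053 for Pf4, -0.15 to 0.11 for Ppbp and -0.29 to 0.17 for Gp9, and at 5 days from -0.10 to 0.013 for Itga2b and -0.064 to 0.033 for Gp9. Spleen at 5 days ran from -0.016 to 0.29 for Pf4, -0.046 to 0.36 for Gp1bb, -0.0088 to 0.15 for Gp9 and -0.043 to 0.27 for Gp5. Vehicle at 5 days minus 1 day in bone marrow ran from -0.24 to 0.072 for Pf4, -0.17 to 0.089 for Ppbp, -0.41 to 0.059 for Gp9 and -0.38 to 0.019 for Treml1, and the tissue difference of the effect at 1 day from -0.25 to 0.053 for Itga2b.

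Counts over all genes moved more. The lowest and highest were 285 and 3651 around 1697 in spleen at 1 day, 61 and 957 around 484 in spleen at 5 days, 97 and 2416 around 803 in bone marrow at 1 day, and 30 and 4404 around 1100 in bone marrow at 5 days. For the tissue difference of the effect they were 14 and 2251 around 125 at 1 day and 29 and 1696 around 222 at 5 days, and for the level 6103 and 31002 around 16177. The highest counts of spleen at 5 days and of the level, 957 and 31002, are of probe sets, each tested apart. Array weights also called 45 genes for the 5 day minus 1 day effect in bone marrow, 33 in spleen and 523 for vehicle between the days in bone marrow, against 0 with equal weights in each. Joint quantile normalization raised the share of calls higher in baclofen to 63.3% from 49.1% in spleen at 1 day and to 78.8% from 68.8% at 5 days. The replicate block gave the lowest counts at 5 days, 30 and 61, and it changed no count of the 8 genes past the threshold. Whether the replicate numbers pair the samples is not known.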
